A study of Mus musculus with 79 samples.

Results

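The cytosolic ribosomal protein genes were taken from 5 count tables of mouse tissue RNA by their symbols. A symbol was included when it read Rpl or Rps followed by a number with at most a letter and a digit, and Rplp0, Rplp1, Rplp2 and Rpsa were added, while symbols marked as pseudogenes were left out. This gave 79 genes of the 15198 symbols listed in any table: 40 of the large subunit, 30 of the small subunit, 3 of the stalk and 6 paralogs of such genes. The liver table of the light-dark experiment listed 77 of them, kidney 78, lung 79, the wild-type liver table in darkness 75 and the knockout liver table in darkness 76. Rpl26, Rpl30, Rpl34 and Rps27 were not analysed here. Across the 10 comparisons of low oxygen with air, 76 members were tested in at least 1 comparison and 3 had too few counts in every one.

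RNA-seq was done on 79 libraries of whole tissue from C57BL/6 mice aged 3 months. In the first experiment, wild-type mice lived for 2 weeks under a cycle of 12 h light and 12 h dark and then breathed air (21% oxygen) or 6% oxygen for 4 h in a sealed cage with constant gas flow, at zeitgeber time (ZT, hours after lights on) ZT4-8 in the light or ZT16-20 in the dark. Per the design text, liver, kidney and lung came from the same 16 mice, 4 in each of the 4 combinations of time and oxygen. The second experiment used wild-type (WT) mice and Per1,2 double knockout (KO) mice, which are meant to lack a pair of period genes of the circadian clock. After 2 weeks of acclimation, both spent 2 days in constant darkness (DD). They then breathed 21% or 6% oxygen for 4 h at circadian time CT4-8 or CT16-20, and liver was taken. Each of the 20 groups held 4 libraries, except for KO liver at CT16-20 in 6% oxygen, which held 3. The knockout is labelled as a whole-body genotype, with no cell type named. In bulk tissue, fewer cells of a type and less RNA per cell cannot be told apart.

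The ribosome is built from ribosomal RNA and these proteins, most of them present once in each particle. The small subunit reads the mRNA, the large subunit joins the amino acids, and the stalk proteins Rplp0, Rplp1 and Rplp2 recruit the translation factors that drive each step. Transcripts of these genes usually begin with a run of pyrimidines (a 5′ terminal oligopyrimidine, or TOP, tract), through which the kinase complex mTORC1 and the binding protein Larp1 set how strongly they are translated. Low oxygen lowers mTORC1 activity, in part through Ddit4 (REDD1). Counts of mRNA measure the amount of transcript and not its translation, so that control at the TOP tract need not show in them.

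A pyrimidine run stood near the annotated start of several members. RefSeq promoters on GRCm38.p6 were found for 59 of the 79 members. The letters CTTTCC, searched on the transcript's strand within 25 bases of the start, stood in 10 of the 59 (16.95%), against 2.916% of 27025 mouse genes with a promoter in the table. For 9 of them it falls within 15 bases of the start, and these windows are printed with the run in capitals (the other was Rpl4). Each window holds 15 bases before the annotated start and 15 from it on. The run begins at the start in Rpl38 and after it in Rpl28, Rpl35a, Rpl15, Rpl18, Rps10 and Rpl13a. In Rpl35 it lies mostly, and in Rpl39l wholly, before the start. A run in these windows is thus not shown to be the first bases of the transcript. Rpl28, Rpl35, Rpl35a, Rpl38, Rpl15 and Rpl18 are among the members whose oxygen calls are described below.
Rpl28: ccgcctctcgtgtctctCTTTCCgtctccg
Rpl35: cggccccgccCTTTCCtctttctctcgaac
Rpl35a: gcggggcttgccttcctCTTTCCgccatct
Rpl38: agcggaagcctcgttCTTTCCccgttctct
Rpl15: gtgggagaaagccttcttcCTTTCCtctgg
Rpl18: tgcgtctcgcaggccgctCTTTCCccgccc
Rps10: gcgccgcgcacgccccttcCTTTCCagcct
Rpl13a: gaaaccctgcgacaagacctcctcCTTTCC
Rpl39l: ctcccaggcCTTTCCggatttccggtggtc
These windows lie at chr7:4792950-4792979 (plus strand) for Rpl28, chr2:39005117-39005146 (minus) for Rpl35, chr16:33056467-33056496 (plus) for Rpl35a, chr11:114668565-114668594 (plus) for Rpl38, chr14:18270972-18271001 (minus) for Rpl15 and chr7:45718056-45718085 (plus) for Rpl18. They lie at chr17:27635230-27635259 (minus) for Rps10, chr7:45128731-45128760 (minus) for Rpl13a and chr16:10170213-10170242 (plus) for Rpl39l. The shorter CTTCC stood in 17 of the 59 (28.81%), against 12.37% of all genes.

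Rps16, Rpl24 and Rps3a1, whose calls in lung or kidney are described below, are shown at the same scale, and none of these windows holds the CTTTCC run.
Rps16: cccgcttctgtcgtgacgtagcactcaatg
Rpl24: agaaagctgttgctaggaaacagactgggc
Rps3a1: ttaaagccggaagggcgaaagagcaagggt
Rps16 is at chr7:28350674-28350703 (plus), Rpl24 at chr16:55966260-55966289 (plus) and Rps3a1 at chr3:86142654-86142683 (minus). The ETS-type motif CCGGAAG, searched on both strands over the whole promoter from 250 bases before to 50 bases after the start, was found in 24 of the 59 (40.68%), against 9.928% of all genes. The core letters of the hypoxia response element, ACGTG, were found on either strand in 18 (30.51%), against 21.78% of all genes. Its overlapping palindrome CACGTG, the E-box, was found in 5 (8.475%), against 8.093%. The YY1-type motif AAGATGGC was found in 5 (8.475%), against 3.19%. A match describes the letters and not a bound site.

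Library totals ran from 1443279 to 6744476 counts (median 3016455). The tissues matched their labels: summed hepatocyte markers reached 110200 to 179600 CPM (counts scaled to a library of fixed size) in the light-dark livers, tubule markers 15360 to 19110 CPM in the kidneys and epithelial markers 66380 to 98490 CPM in the lungs. Per1 and Per2 still had counts in the KO libraries: in air at CT4-8, Per1 was at 16.15 to 38.44 CPM in WT and 20.02 to 35.55 CPM in the libraries labelled KO. Per2 was at 5.298 to 9.948 and 4.878 to 11.29 CPM there. In 6% oxygen at CT4-8, Per1 was at 45.33 to 84.68 CPM in WT and 14.95 to 21.29 CPM in KO. Per2 was then at 2.943 to 10.84 CPM in WT and 19.11 to 31.17 CPM in KO. Whether those reads lie outside the deleted part was not tested, so the genotype rests on the labels. In WT darkness, library A of air at CT4-8 stood apart, with a median correlation of 0.8901 with the other libraries of its table against 0.9365 for the next lowest library of any table, in lung. Counts of members called in tests that it enters, and values of most members named for them, are also given without it. For fits that left out a library or a mouse, the share of all genes called is not given here.

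The members took different shares of the counts in the 3 tissues. Their summed share was 2.974% to 3.756% in the light-dark livers, 4.628% to 5.47% in the kidneys and 6.679% to 8.048% in the lungs. These ranges did not overlap. With the 10 most abundant other genes left out of the total they were 3.887% to 4.94%, 5.055% to 6.063% and 7.832% to 9.238%, and with TMM-scaled totals 2.967% to 4.1%, 4.508% to 5.757% and 6.518% to 8.342%, again with no overlap. Those totals moved the group's mean by more than its SD in 20 and 4 of the 20 groups. In darkness it was 2.393% to 4.295% in WT livers and 2.656% to 3.628% in livers labelled KO. The group means in air were 3.274% ± 0.0646 (SD, n = 4) at ZT4-8 and 3.548% ± 0.19 at ZT16-20 in liver, 5.033% ± 0.0558 and 5.284% ± 0.0765 in kidney, and 7.8% ± 0.196 and 7.341% ± 0.512 in lung. Under 6% oxygen they were 3.494% ± 0.242 and 3.336% ± 0.294, 4.788% ± 0.185 and 5.189% ± 0.298, and 7.764% ± 0.161 and 7.754% ± 0.193. In each tissue and time of the light-dark experiment the values of the oxygen groups overlapped. In WT darkness the share was 3.287% ± 0.675 in air at CT4-8, where library A alone reached 4.295%, and 2.617% ± 0.176 in 6% oxygen, and these values did not overlap (2.899% at the lowest in air, 2.814% at the highest in 6% oxygen). At CT16-20 it was 3.162% ± 0.236 and 2.878% ± 0.0857. In livers labelled KO it was 2.857% ± 0.146 in air and 2.938% ± 0.304 in 6% oxygen at CT4-8, and 2.974% ± 0.23 and 3.376% ± 0.221 (n = 3) at CT16-20.

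**Figure D1:**
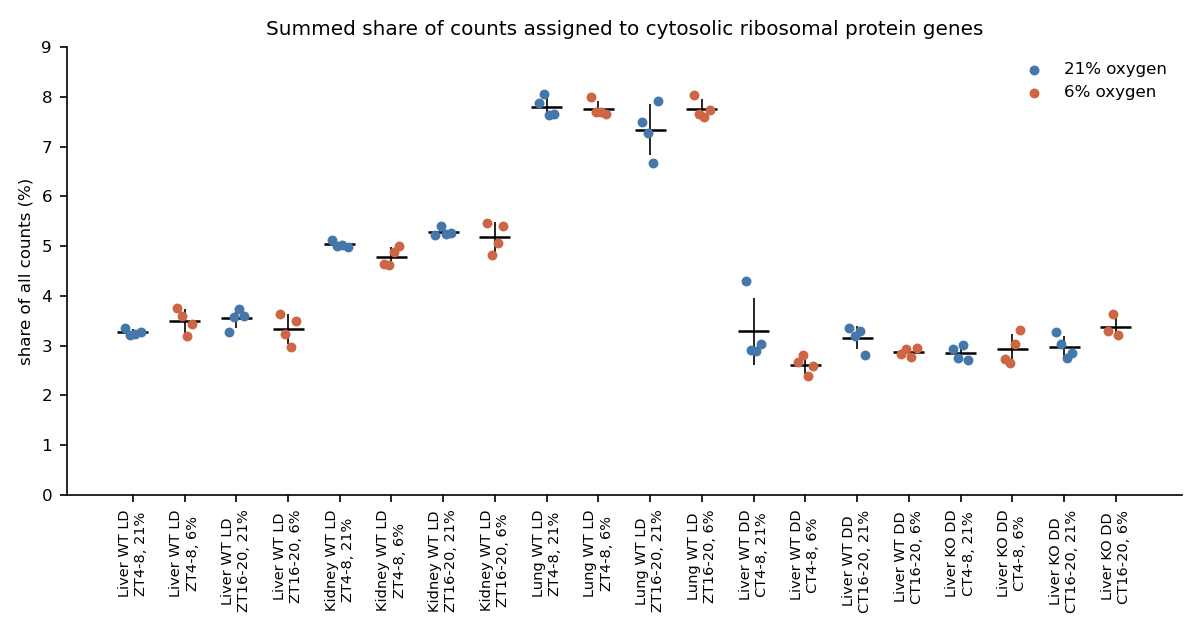
Summed counts of the ribosomal protein genes as a percent of all counts (y axis) for each library of the 20 groups (x axis, by tissue, time and oxygen), with points for libraries. Lung libraries sit between 6.679% and 8.048%, above all kidney libraries, which sit above all liver libraries.

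Levels differed widely between members, although most are present once in each particle. All levels are TMM-scaled CPM within a table, and comparisons between genes use CPM per kilobase of transcript. Rplp1, a stalk protein, was the highest in every table: in air it was at 2338 ± 346 CPM (SD, n = 8 libraries over both times) in light-dark liver, 3114 ± 153 in kidney, 5392 ± 368 in lung, 1834 ± 629 in WT dark liver and 1651 ± 141 in dark liver labelled KO. Per kilobase this was 4685, 6241, 10800, 3676 and 3308 CPM. The median member other than the paralogs was at 380.0, 653.9, 927.4, 385.1 and 381.8 CPM per kilobase. After Rplp1, Rps21 and Rps29 were the next highest per kilobase in all 5 tables. By CPM the next highest were Rps18, Rps2, Rpl4 and Rpl41 in liver, Rpl41, Rps21, Rps2 and Rps18 in kidney, and Rps19, Rps21 and Rpl23a among others in lung.

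A few members that every ribosome contains were counted at very low levels. In each light-dark table, 4 of them were under 10 CPM: Rps15a, Rpl39, Rps4x and Rpl21. In dark liver it was 3 in each table: Rpl5, Rps4x and Rpl39. Rps15a was at 0.08525, 0.1468 and 0.237 CPM per kilobase in liver, kidney and lung. Many of these genes have near-identical processed pseudogenes: 72 of the 73 members other than paralogs shared 50-base stretches with one, and a median of 48.61% of their 50-base stretches was found in no other transcript. For 17 members that share was under 20%. How reads that map to several places were counted is not given in the sources used here, so levels of such genes are uncertain, and differences between members may hold this loss.

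The stalk and the laminin-receptor homolog Rpsa, a small subunit protein, followed the tissue order of the whole family by level within each table. Rplp0 was at 682 CPM in liver, 1476 in kidney and 1584 in lung, Rplp2 at 605.4, 1041 and 1492, and Rpsa at 601, 750.5 and 1152. Among the paralogs, Rps27l, a p53-responsive paralog of Rps27, was the only one at over 100 CPM, with 417.9, 495.7 and 255.2 CPM. Rpl7l1, a paralog of Rpl7, was at 27.13, 39.93 and 41.34 CPM and Rps4l at 19.61, 22.84 and 53.93. Rpl22l1 stayed at 2.954, 8.073 and 6.688 CPM. Rpl3l, the muscle form of Rpl3, was at 6.282 CPM in kidney and 7.612 in lung, and single lung libraries in air ran from 0.591 to 19.1 CPM. Rpl39l was at 0.7119 CPM in lung. Across members, levels in any pair of tables correlated with r between 0.907 and 0.991, as a description over 75 to 78 genes that share the same counting. Within groups, the members' median SD on the log2 scale was 0.207 in light-dark liver, 0.265 in kidney, 0.2 in lung, 0.279 in WT dark liver and 0.263 in dark liver labelled KO, against 0.23, 0.24, 0.217, 0.282 and 0.271 over all genes of like minimum level. Rplp1 was the steadiest member in kidney (0.0807), lung (0.0776) and dark liver labelled KO (0.117). The widest were Rps3 in light-dark liver (0.595), Rpl23 in kidney (0.99), Rps25 in lung (0.809), Rps16 in WT dark liver (1.37) and Rpl7a in dark liver labelled KO (1.8).

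Tissue differences in air were tested in a joint fit of the 3 light-dark tissues with the mouse as a block, taking the same replicate letter as the same mouse, which the labels do not state. Their direction depended on the scaling. With TMM, which sets the middle of all genes equal between tissues, 52 of 75 tested members were higher and 2 lower in liver than in kidney (median log2 difference 0.371), where 65.9% of all genes were called (32.6% higher, 33.3% lower). With total counts 0 were higher and 62 lower (median -0.623). In liver against lung, TMM gave 35 higher and 12 lower (median 0.203; 78.8% of all genes called, 38.3% higher and 40.5% lower) and total counts 1 higher and 67 lower (median -1.08). In lung against kidney, TMM gave 32 higher and 17 lower (median 0.177; 75.5% of all genes called, 38.7% higher and 36.8% lower) and total counts 49 higher and 12 lower (median 0.467). The change of scaling moved the median of all genes by -0.993, -1.28 and 0.287. TMM factors were 0.536 to 0.658 in liver, 1.14 to 1.23 in kidney and 1.31 to 1.55 in lung.

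Lung and kidney differed in the same direction under both scalings for 32 members higher and 12 lower in lung. Rpl31, a large subunit protein near the exit tunnel, had a median of 1296 CPM in lung and 419.2 in kidney by total counts, and its log2 difference was 1.32 with TMM. Rpl36a (1.24), Rps24 (1.17) and Rps25 (1.11) were the next highest in lung. Kidney air libraries B and D at ZT4-8 were low for Rpl36a and Rps24 and enter both differences. The lowest kidney air library was at 43.57 CPM for Rpl36a (median 176.2) and 44.15 CPM for Rps24 (median 420.1), scaled within the kidney table. Rpl5, which carries the 5S ribosomal RNA into the large subunit, had a median of 14.76 CPM in lung and 37.28 in kidney by total counts, and a TMM log2 difference of -1.37. Rpl15 (-1.23), Rps27l (-1.18) and Rpl35 (-0.95) were also lower in lung. Rps27l was the single member called higher in liver than in lung under both scalings, with a log2 difference of 1.94 with TMM and 0.65 with total counts. Its median levels by total counts were 407.9 CPM in liver, 467.2 in kidney and 259.7 in lung.

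**Figure D2:**
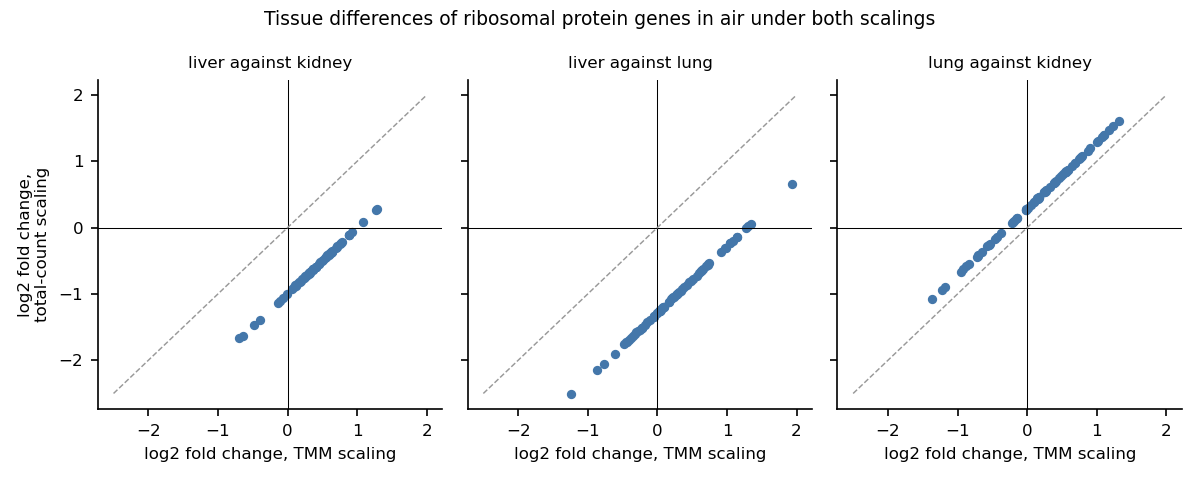
Log2 difference between tissues in air for each tested ribosomal protein gene with TMM scaling (x axis) and with total-count scaling (y axis), 1 panel for each pair of tissues, with a dashed line where both are equal. Points lie below the line in both panels with liver (medians 0.371 and -0.623 against kidney, 0.203 and -1.08 against lung) and above it for lung against kidney.

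From 0 to 14 members were called under low oxygen in any one comparison, and the direction of the calls differed by tissue. In WT dark liver at CT4-8, with air library A included, 17.6% of the members were called, against 11.8% of all genes. No member passed a test of a difference in the oxygen effect between the times, as given below. Over the 10 comparisons of 6% with 21% oxygen there were 50 calls (edgeR's quasi-likelihood test, adjusted p under 0.05 over all genes tested), spread over 37 members. Another 39 tested members were never called. A member that was not called may still have changed. In counts simulated for the earlier time of each table, the fit recovered 7% to 19% of 1.5-fold changes. It recovered 52% to 72% of 2-fold changes. The changed genes were drawn at random from all genes tested, so these rates are not those at the members' levels. Only 10 members were called more than once, and 6 of these, Rpl24, Rpl28, Rpl35, Rpl36, Rps29 and Rps3a1, were higher in one comparison and lower in another. None of the paralogs was called in any of the 10.

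**Figure D3:**
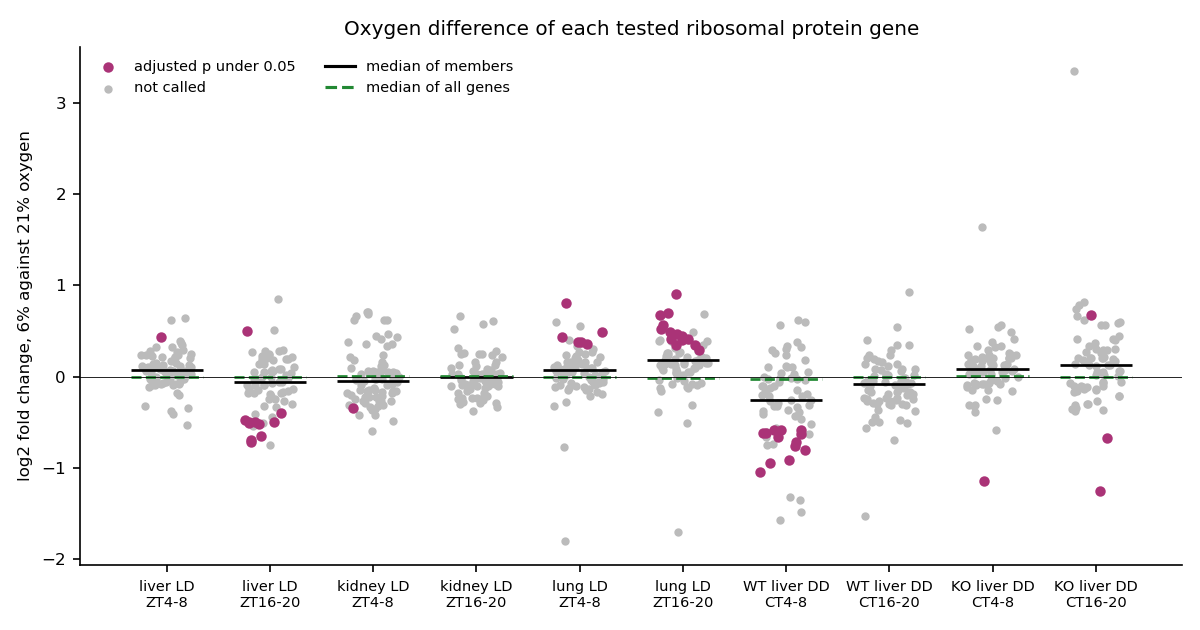
Log2 fold change of 6% against 21% oxygen (y axis) for each tested ribosomal protein gene in the 10 comparisons (x axis), with called genes in purple and a line at the median. Calls were 14 higher and 0 lower in lung at ZT16-20, 1 higher and 10 lower in liver at ZT16-20 and 0 higher and 13 lower in WT dark liver at CT4-8.

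In lung, each member called under low oxygen was higher, at both times. At ZT16-20, 14 of 76 members rose and 0 fell (6 of the large subunit, 7 of the small subunit and Rplp2 of the stalk), with a median log2 change of 0.181 against -0.0131 over all genes, of which 21.1% were called. At ZT4-8, 6 rose and 0 fell (5 large, 1 small; median 0.0739), where 22.6% of all genes were called (11.2% higher, 11.4% lower). In both directions together, the members' calls were thus fewer for their number than those of all genes at both times. At ZT16-20 the calls over all genes were split into 10.2% higher and 10.9% lower. Those of the members were all higher and, in that direction, more for their number. Oxygen groups did not overlap for 12 higher and 0 lower members at ZT16-20 and for 12 higher and 2 lower at ZT4-8, where 21.2% and 26.7% of all genes did not overlap.

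Rps16, a small subunit protein whose tail contacts the tRNA (gene at chr7:28350652-28353155, plus strand, mm10), had the largest change of the members called in lung at ZT16-20. It was at 81.2, 77.4, 86.3 and 30.1 CPM in air and 127, 127, 121 and 141 CPM in 6% oxygen. All 6% libraries were above all air libraries, and air library D was far under the others. The log2 change was 0.91 (SE 0.21, adjusted p = 0.00445), and 0.67 to 1.06 when each library was left out in turn. At ZT4-8 the same gene was at 97.0, 91.0, 80.2 and 87.8 CPM in air and 128, 108, 133 and 129 CPM in 6% oxygen, also without overlap, but was not called.

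Rpl6 (chr5:121204481-121209241, plus), of the large subunit, was at 92.2, 115, 106 and 77.3 CPM in air and 171, 118, 224 and 119 CPM in 6% oxygen, with a log2 change of 0.70 (SE 0.172, adjusted p = 0.00538). Libraries A and C in 6% oxygen were the high ones, and B and D lay just above air. Rpl10a was at 175, 119, 121 and 76.1 CPM in air and 184, 171, 175 and 197 in 6% oxygen, so that air library A overlapped, with a log2 change of 0.56 (adjusted p = 0.0108).

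Rpl24, a large subunit protein that bridges to the small subunit (chr16:55966275-55971435, plus strand), was the tightest of the lung changes and was called at both times. It was at 172, 178, 152 and 168 CPM in air and 247, 239, 212 and 245 CPM in 6% oxygen at ZT4-8. At ZT16-20 it was at 165, 144, 148 and 158 CPM in air and 222, 218, 224 and 222 CPM in 6% oxygen. No 6% library was as low as any air library at either time. The log2 changes were 0.49 (SE 0.0947, adjusted p = 0.000444) and 0.53 (SE 0.0954, adjusted p = 0.000267). Only 18.312% of its 50-base stretches are found in no other transcript.

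Rps3a1, a small subunit protein near the mRNA exit (chr3:86137940-86142702, minus strand), was the other member called at both times in lung. It was at 563, 697, 593 and 548 CPM in air and 931, 719, 703 and 770 CPM in 6% oxygen at ZT4-8. At ZT16-20 it was at 590, 479, 692 and 544 CPM in air and 813, 700, 807 and 738 CPM in 6% oxygen. The groups were apart at both times, by a narrow gap, with log2 changes of 0.38 (adjusted p = 0.0247) and 0.41 (adjusted p = 0.0171).

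The remaining calls at ZT4-8 in lung were Rpl5, Rpl35, Rpl19 and Rpl4, all large subunit proteins. Rpl5 (chr5:107900502-107909005, plus) was at 20.0, 11.3, 14.1 and 14.4 CPM in air and 19.7, 30.3, 28.8 and 25.5 CPM in 6% oxygen, a log2 change of 0.81 (SE 0.199, adjusted p = 0.00456). One library of each group overlapped, and 6.162% of its 50-base stretches are found in no other transcript. Rpl35 changed by 0.44, Rpl19 by 0.38 and Rpl4 by 0.35 on the log2 scale. Of the 6 calls at this time, Rpl5, Rpl19 and Rpl24 were kept in each of the 8 fits that left out 1 library.

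Among the stalk genes in lung, Rplp2 was at 1517, 1094, 1382 and 901 CPM in air and 1735, 1637, 1660 and 1835 CPM in 6% oxygen at ZT16-20, a log2 change of 0.49 (SE 0.128, adjusted p = 0.00747) with no overlap. Rplp1 was at 4962 to 5596 CPM in air and 5465 to 6025 CPM in 6% oxygen, and Rplp0 at 1158 to 2348 and 1307 to 1816 CPM, neither called. Rpsa was at 1131, 1040, 962 and 1098 CPM in air and 1310, 1272, 1276 and 1306 CPM in 6% oxygen, a log2 change of 0.29 (adjusted p = 0.0301) that was lost without air library C (0.26) or 6% library D (0.29).

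**Figure D4:**
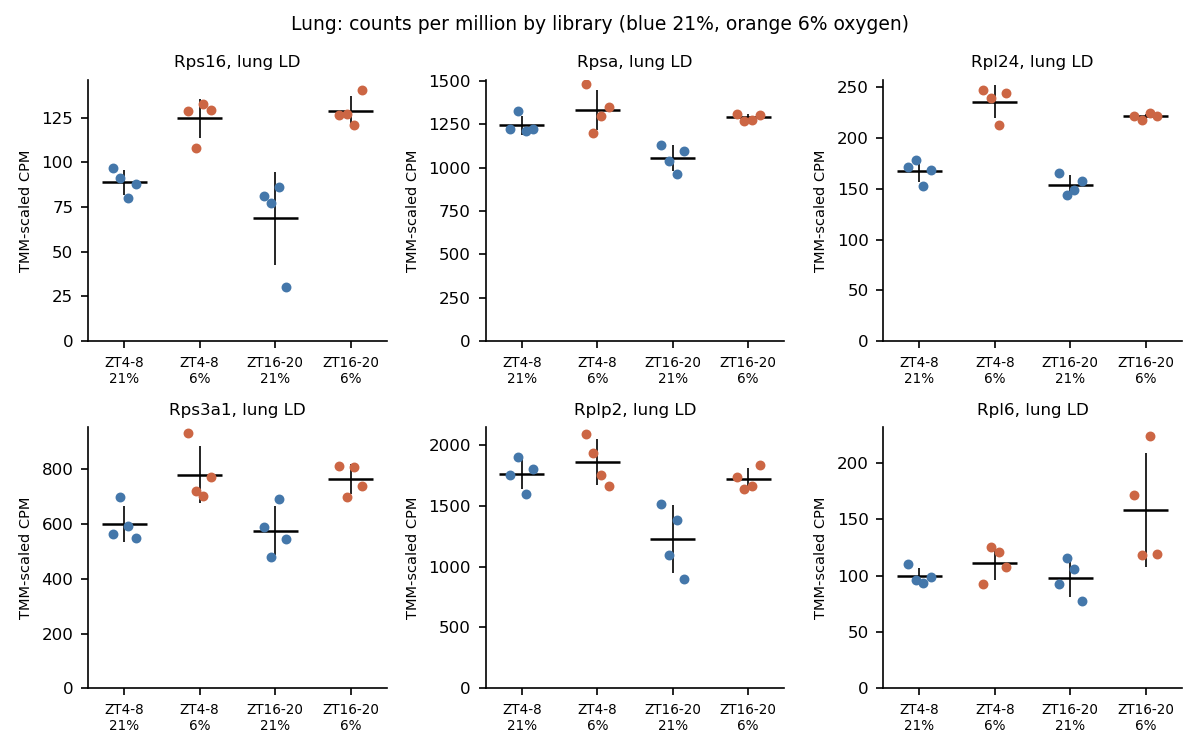
TMM-scaled CPM (y axis) of Rps16, Rpsa, Rpl24, Rps3a1, Rplp2 and Rpl6 in each lung library by time and oxygen (x axis), with points for libraries and bars for the mean ± SD. At ZT16-20 every 6% library lies above every air library for all 6 genes.

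The lung result depended in part on scaling and stood beside shifts in other cell types' markers. By total counts, 6 members were called at ZT16-20 (among them Rpl10a, Rpl24, Rpl6, Rplp2 and Rps16; median 0.0661, where the median of all genes was -0.124) and 2 at ZT4-8 (Rpl24 and Rpl5; median 0.00198). Leaving out each library in turn, 7 of the 14 calls at ZT16-20 held in all 8 fits, among them Rpl10a, Rpl24, Rpl36, Rpl6, Rplp2 and Rps16. The summed level of the 7 endothelial markers, all listed, was 2766 to 3165 CPM in air and 4452 to 4941 CPM in 6% oxygen at ZT4-8, and 2611 to 2886 and 3135 to 4098 CPM at ZT16-20. The 6 listed of 7 neutrophil markers (Ly6g was not listed) summed to 59.75 to 137.2 CPM in air and 243.2 to 444.7 CPM in 6% oxygen at ZT16-20, and to 329.5 to 559.8 and 355.4 to 653.6 CPM at ZT4-8. Their part in the ribosomal protein changes was not tested.

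In light-dark liver the calls at ZT16-20 went the other way. There 10 of 74 members fell and 1 rose (6 large and 4 small subunit proteins fell), with a median of -0.0562 against -0.00272 over all genes. Of all genes, 20.3% were called (9.98% higher, 10.3% lower). In both directions together, the members' calls were again fewer for their number. Their calls lower, taken alone, were somewhat more for their number than those of all genes. The oxygen groups did not overlap for 7 members lower and 3 higher, and for 22.4% of all genes. At ZT4-8 a single member of 74 was called, as higher in 6% oxygen, where 9.64% of all genes were called (5.43% higher). That call was lost in 6 of the 8 fits that left out 1 library.

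Rpl35a, a large subunit protein (chr16:33056453-33060189, plus strand), was at 222, 249, 293 and 186 CPM in air and 125, 131, 144 and 176 CPM in 6% oxygen at ZT16-20. The groups were apart, with a log2 change of -0.72 (SE 0.16, adjusted p = 0.00269). Rpl14 (chr9:120571444-120574654, plus), also of the large subunit, was at 444, 590, 803 and 497 CPM in air and 313, 309, 412 and 411 CPM in 6% oxygen, a log2 change of -0.69 (SE 0.159, adjusted p = 0.00345) with no overlap. Air library C held the highest value of both genes. Rps23, which forms part of the decoding site, was at 259, 281, 304 and 285 CPM in air and 157, 138, 209 and 218 CPM in 6% oxygen, a log2 change of -0.65 (SE 0.196, adjusted p = 0.0249).

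Rpl15 was near the floor of the family, at 20.1, 21.6, 17.6 and 19.0 CPM in air and 13.4, 13.0, 17.6 and 10.4 CPM in 6% oxygen, a log2 change of -0.52 (adjusted p = 0.0435) with overlap. Rps21, at 1087, 1241, 1403 and 1033 CPM in air and 889, 669, 823 and 987 CPM in 6% oxygen, changed by -0.50 (adjusted p = 0.0105). Rpl41, the smallest ribosomal protein, was at 1162, 1269, 1284 and 1181 CPM in air and 1034, 1020, 559 and 867 CPM in 6% oxygen, and changed by -0.49 (adjusted p = 0.0296). The last pair had no overlap between the oxygen groups. Rps29 (-0.50), Rps26 (-0.50), Rpl38 (-0.47) and Rpl23 (-0.40) were the other members that fell.

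Rpl23a, which lies at the exit tunnel, rose: it was at 355, 584, 514 and 680 CPM in air and 827, 804, 684 and 700 CPM in 6% oxygen at ZT16-20, a log2 change of 0.50 (SE 0.177, adjusted p = 0.0496). The groups were just apart, at 680 against 684 CPM. At ZT16-20, Rpl14, Rpl35a, Rps21 and Rps29 were called in all 8 such fits, and the count was 5 without air library C, 6% library A or 6% library B, 6 without air library B and 7 without 6% library D. All 11 calls were kept with total-count scaling. The 5 listed of 8 lung epithelial markers (Sftpb, Sftpa1 and Aqp5 were not listed) summed to 117.4 to 149.0 CPM in air and 80.63 to 112.4 CPM in 6% oxygen in these livers. In WT dark liver, the 2 listed, Sftpd and Hopx, summed to 130.0 to 176.4 CPM in air at CT16-20. In liver this sum thus need not count lung epithelium. The part of these genes was not tested.

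In kidney, 1 of 76 members fell at ZT4-8 (5.28% of all genes called, 2.49% lower) and 0 were called at ZT16-20 (6.9% of all genes; 5 members had an unadjusted p under 0.05, and DESeq2 called 1). The fallen member was Rps3a1, at 543, 541, 528 and 555 CPM in air and 379, 428, 446 and 450 CPM in 6% oxygen. The groups were far apart relative to their spread, with a log2 change of -0.35 (SE 0.0972, adjusted p = 0.0394). Of the 8 fits that left out 1 library, 7 lost this call. Rplp2 was at 1047, 1311, 822 and 1059 CPM in air and 619, 618, 808 and 980 CPM in 6% oxygen, a log2 difference of -0.49 (adjusted p = 0.0905) that did not pass. Without air library C, 9 members were called in kidney at ZT4-8, and the share of all genes called in that fit is not given. The 2 listed of 6 erythroid markers summed to 29.88 to 53.43 CPM in air and 10.14 to 25.31 CPM in 6% oxygen at that time, and the 5 listed of 8 macrophage markers to 160.4 to 176.7 and 180.2 to 239.4 CPM. Their part was not tested.

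In WT liver in darkness, 13 of 74 members fell and 0 rose at CT4-8 (8 large and 4 small subunit proteins and Rplp1 of the stalk), with a median of -0.259 against -0.0222 over all genes, of which 11.8% were called (5.7% higher, 6.07% lower). Groups did not overlap for 16 members lower and 2 higher, and for 17.2% of all genes. Library A of air held much of this difference. Rpl29 (chr9:106429454-106431568, plus strand), a large subunit protein that also binds heparin, was at 548, 162, 173 and 224 CPM in air and 150, 123, 130 and 132 CPM in 6% oxygen. All 6% libraries were lower, and library A was far above the other air libraries. The log2 change was -1.04 (SE 0.278, adjusted p = 0.02), and -0.46 (adjusted p = 0.0263) without library A.

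Rpl28 was at 829, 282, 248 and 324 CPM in air and 222, 221, 206 and 224 CPM in 6% oxygen, a log2 change of -0.94 (adjusted p = 0.0273), and -0.36 (adjusted p = 0.0549) without library A. Rpl35, of which 4.905% of 50-base stretches are found in no other transcript, was at 48.8, 25.6, 43.3 and 26.4 CPM in air and 15.2, 17.5, 24.3 and 18.0 CPM in 6% oxygen. Its log2 change was -0.92 (adjusted p = 0.0235), and -0.73 (adjusted p = 0.0685) without library A. Rpl18 changed by -0.59 (adjusted p = 0.0273), and by -0.30 (adjusted p = 0.0746) without library A. None of these 3 calls held without that library, although for Rpl28 and Rpl35 the other air libraries were still above the 6% libraries.

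Rpl41 was at 1445, 811, 821 and 964 CPM in air and 551, 621, 532 and 618 CPM in 6% oxygen, a log2 change of -0.80 (adjusted p = 0.00749) that passed without library A too (-0.56, adjusted p = 0.0139). Rpl10, needed for the subunits to join, was at 184, 85.4, 125 and 94.2 CPM in air and 80.5, 64.7, 65.0 and 77.0 CPM in 6% oxygen, a log2 change of -0.76 (adjusted p = 0.0107), and -0.48 (adjusted p = 0.0261) without library A. Rplp1 was at 3338, 1760, 1558 and 1785 CPM in air and 1542, 1456, 1207 and 1302 CPM in 6% oxygen, a log2 change of -0.62 (adjusted p = 0.0357), and -0.29 (adjusted p = 0.131) without library A. Rpl10 and Rpl41 were the 2 calls that held in all 8 fits that left out 1 library.

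Without library A, 6 members were called, 5 of them from the 13 (Rpl10, Rpl29, Rpl41, Rps18 and Rps2), and the median was -0.0937. The shares of all genes called at CT4-8, given above, are from the fit with library A. The count was also 6 without 6% library A, 5 without 6% library C and 4 without 6% library B or D. At CT16-20, 0 members were called (9.83% of all genes called; 6 members at an unadjusted p under 0.05, and DESeq2 called 1). Summed hepatocyte markers were at 74090 to 100600 CPM in air and 96550 to 105700 CPM in 6% oxygen at CT4-8; their part in the result was not tested.

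In livers labelled KO, Rps27a fell at both times. Rps27a (chr11:29545846-29548109, minus strand) encodes ubiquitin fused to a small subunit protein and so supplies both. It was at 89.1, 90.1, 58.5 and 105 CPM in air and 33.2, 29.3, 40.2 and 52.1 CPM in 6% oxygen at CT4-8. At CT16-20 it was at 129, 99.5, 115 and 80.1 CPM in air and 30.2, 55.2 and 47.1 CPM in 6% oxygen. Every 6% library was below every air library at both times. The log2 changes were -1.15 (SE 0.223, adjusted p = 0.00352) and -1.26 (SE 0.237, adjusted p = 0.00312), and both calls held in every fit that left out 1 library (-1.32 to -1.04 and -1.46 to -1.04).

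In WT livers in darkness Rps27a was at 134, 57.7, 37.9 and 47.8 CPM in air and 39.7, 56.5, 42.9 and 51.0 CPM in 6% oxygen at CT4-8. At CT16-20 it was at 51.1, 57.0, 55.6 and 60.1 CPM in air and 41.6, 51.1, 43.7 and 45.7 CPM in 6% oxygen, and it was called at neither time. The WT values overlapped at CT4-8, and at CT16-20 the oxygen groups met at 51.1 CPM. The difference between the genotypes in the oxygen effect was itself tested and did not pass, at -0.64 (adjusted p = 0.413) and -0.96 (adjusted p = 0.388) on the log2 scale. Without WT library A, at 134 CPM the highest of the WT values, the difference at CT4-8 was -1.15 and passed (adjusted p = 0.0255). Only 28.032% of this gene's 50-base stretches are found in no other transcript.

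At CT4-8 Rps27a was the single call of 73 members in livers labelled KO (median 0.089; 5.59% of all genes called, 2.76% lower). The 4 listed of 7 neutrophil markers summed to 3.798 to 11.39 CPM in air and 13.8 to 71.64 CPM in 6% oxygen there, and their part was not tested. At CT16-20, 1 rose and 2 fell (median 0.128; 4.51% of all genes called, 2.39% higher and 2.11% lower). Rps25, which internal ribosome entry sites of some viruses depend on, was at 276, 206, 208 and 214 CPM in air and 108, 186 and 130 CPM in 6% oxygen, a log2 change of -0.68 (SE 0.181, adjusted p = 0.0366). Rpl19 was at 46.9, 34.1, 53.4 and 39.5 CPM in air and 55.9, 77.2 and 76.6 CPM in 6% oxygen, a log2 change of 0.68 (SE 0.185, adjusted p = 0.0392). Both had no overlap, and both calls were lost in 5 of the 7 fits that left out 1 library: without air library A, B or D or 6% library C, 1 call was left. Summed hepatocyte markers were at 101900 to 129700 CPM in air and 78430 to 90060 CPM in 6% oxygen at CT16-20; their part was not tested.

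**Figure D5:**
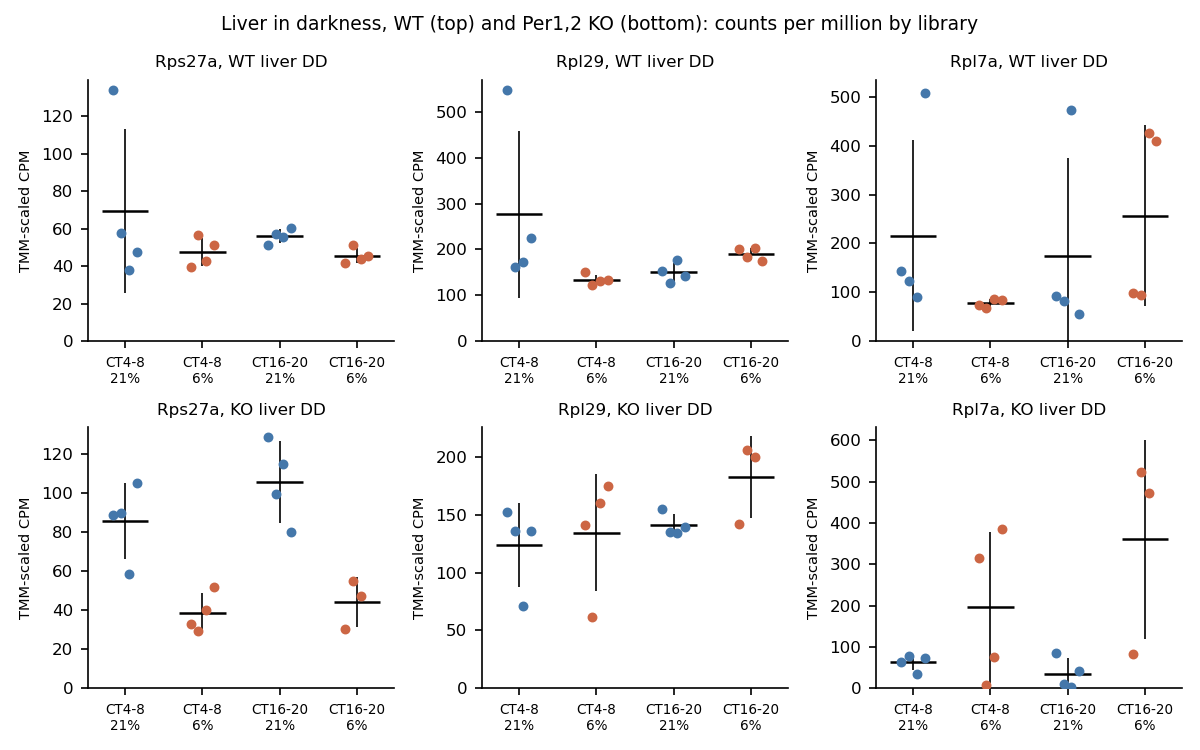
TMM-scaled CPM (y axis) of Rps27a, Rpl29 and Rpl7a in each dark liver library, WT above and libraries labelled KO below, by time and oxygen (x axis), with points for libraries. In libraries labelled KO, Rps27a is at 58.5 to 129 CPM in air and 29.3 to 55.2 CPM in 6% oxygen.

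The oxygen effect on several members differed between lung and the other tissues when that difference was tested. In liver against lung, 11 members had a lower oxygen effect in liver and 0 a higher one (median -0.155; 15.2% of all genes called, 6.59% higher and 8.61% lower). Rpl35 differed by -1.14, Rps16 by -0.82, Rpl41 by -0.73 and Rps23 by -0.65 on the log2 scale, followed by Rps3a1, Rpl14, Rps13, Rpl10, Rps29, Rpl19 and Rpl24. In lung against kidney, 7 had a higher oxygen effect in lung and 0 a lower one (median 0.176; 8.05% of all genes called, 4.77% higher and 3.28% lower). Rps16 differed by 1.01 (SE 0.201, adjusted p = 0.00103), Rpl41 by 0.80, Rps3a1 by 0.64 and Rpl24 by 0.63, followed by Rpl10a, Rps13 and Rpl10. Both comparisons use the same lung libraries. By total counts 6 and 3 of these passed, and Rps16, Rpl24 and Rps3a1 did so in both. In liver against kidney 0 members were called (6.43% of all genes; 11 members had an unadjusted p under 0.05). Without the mouse of air C at ZT4-8 there were 2.

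The oxygen effect did not pass a test of difference between the times for any member in any of the 5 tables. Background calls for this test were 2.06% of all genes in light-dark liver, 0.368% in kidney, 0.255% in lung, 1.62% in WT dark liver and 0.0117% in dark liver labelled KO. An unadjusted p under 0.05 was reached by 9, 7, 5, 19 and 6 members, and DESeq2 called 1 each in light-dark liver (Rps29), kidney (Rps9) and WT dark liver (Rpl29). Without library A, 2 members (Rpl13 and Rpl29) were called in WT dark liver.

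Few members were called for time of day in air. In light-dark liver 5 of 74 were higher at ZT16-20 than at ZT4-8 and 0 lower (median 0.19; 5.91% of all genes called, 3.24% higher): Rps26 (0.61), Rpl14 (0.60), Rpl38 (0.54), Rpl37 (0.54) and Rps29 (0.40). None was called by total counts (median 0.0614, where the median of all genes moved by -0.124). Rpl14 was at 401, 372, 388 and 380 CPM at ZT4-8 and 444, 590, 803 and 497 CPM at ZT16-20, where library C was the highest, and none of the 5 calls held in all 8 fits that left out 1 library. In lung Rplp2 alone differed, from 1749, 1896, 1596 and 1798 CPM at ZT4-8 to 1517, 1094, 1382 and 901 CPM at ZT16-20, a log2 change of -0.52 (SE 0.128, adjusted p = 0.046; 0.979% of all genes called, 0.634% lower). That call too was lost in 6 of the 8 fits, among them all 4 without an air library of ZT4-8 (-0.57 to -0.49). The neutrophil markers in air, given above for lung, were likewise lower at ZT16-20, with no overlap, and their part was not tested. In kidney and in dark liver labelled KO 0 were called (1.09% and 0.0235% of all genes).

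In WT dark liver 3 members rose and 1 fell from CT4-8 to CT16-20 in air (3.66% of all genes called, 1.8% higher and 1.86% lower). Rps3, a small subunit protein at the mRNA entry that also takes part in DNA repair, was at 76.8, 88.0, 45.1 and 57.1 CPM at CT4-8 and 139, 117, 126 and 113 CPM at CT16-20. The times were apart, with a log2 change of 0.89 (SE 0.181, adjusted p = 0.00603), and this was the call of the 4 that held in every fit that left out 1 library. Rpl27 changed by 0.74 (adjusted p = 0.021), Rpl38 by 0.64 (adjusted p = 0.0449) and Rpl10 by -0.69 (adjusted p = 0.0382). Without library A, 7 were called, among them Rpl27, Rpl38 and Rps3 but not Rpl10 (-0.41), and the count was 1 without CT16-20 library A or C and 2 without B.

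Genotype was compared in air in dark liver, where genotype and count table coincide and cannot be told apart. At CT4-8, 1 of 74 members was higher and 8 lower in livers labelled KO (4.51% of all genes called, 2.26% higher and 2.24% lower). The genotypes did not overlap for 2 members higher and 9 lower, and for 10.2% of all genes. Rpl28 was at 829, 282, 248 and 324 CPM in WT and 170, 192, 122 and 172 CPM in KO, each scaled within its own table, with no overlap. The log2 difference from a joint fit of both tables was -1.34 (SE 0.274, adjusted p = 0.00338), and -0.78 (adjusted p = 0.0181) without WT library A. Rpl10 was at 184, 85.4, 125 and 94.2 CPM in WT and 71.7, 52.6, 50.8 and 20.9 CPM in KO, a log2 difference of -1.28 (SE 0.232, adjusted p = 0.000845), and -1.02 (adjusted p = 0.00527) without that library. Rpl29 (-1.14), Rpl41 (-1.01), Rpl18, Rpl24, Rps18 and Rps3a1 were also lower. Without WT library A, Rpl29 was at -0.57 (adjusted p = 0.176) and Rpl41 at -0.78 (adjusted p = 0.145), and the members' median went from -0.148 to -0.0195. The endothelial markers, all 7 listed in both tables, summed to 172.1 to 186.4 CPM in WT and 189.0 to 233.6 CPM in KO. The B-cell markers, 2 of 7 listed in WT and 3 of 7 in KO with Cd79a and Ms4a1 in neither, summed to 77.61 to 183.2 CPM and 227.9 to 424.7 CPM. Their part in the genotype differences was not tested.

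Rpl38, needed to translate certain Hox mRNAs, was the higher one, at 268, 419, 429 and 363 CPM in WT and 574, 421, 898 and 542 CPM in KO, a log2 difference of 0.73 (SE 0.189, adjusted p = 0.0189) with overlap at 421 and 429 CPM, and 0.61 (adjusted p = 0.065) without WT library A. Without WT library A, 4 members were called (Rpl10, Rpl24 and Rpl28 of the 9, and Rps27a, which was 0.86 higher in KO at an adjusted p of 0.0117), and without KO library C, 2. At CT16-20, 0 were called (2.0% of all genes; 5 at an unadjusted p under 0.05, and DESeq2 called 1). The oxygen effect differed between genotypes for 1 member at CT4-8, Rps18, with a log2 difference of 0.78 (SE 0.204, adjusted p = 0.0323; 2.42% of all genes called, 1.15% higher), and 0.60 (adjusted p = 0.0672) without WT library A, where Rps27a was called instead. At CT16-20 it differed for 0 members (0.0444% of all genes; 10 at an unadjusted p under 0.05).

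Other genes of the pathway were counted in the same oxygen comparisons. Ddit4, the hypoxia-induced inhibitor of mTORC1, rose in all 10 oxygen comparisons, with log2 changes from 2.00 in lung at ZT4-8 to 6.05 in light-dark liver at ZT4-8. In that liver it was at 2.20 to 9.98 CPM in air and 197 to 456 CPM in 6% oxygen. Ribosome biogenesis factors, which assemble the subunits in the nucleolus, were called 15 higher and 0 lower of 49 in lung at ZT4-8, 11 higher and 2 lower of 49 at ZT16-20, and 13 higher and 1 lower of 48 in liver at ZT16-20, where 10 ribosomal proteins fell. Bysl, needed for the small subunit, rose in lung by 1.59 and 1.78 on the log2 scale, and Nop58, a nucleolar box C/D protein, by 0.90 and 0.77. Nmd3, the export adaptor of the large subunit, rose by 1.08 (adjusted p = 8.47e-06) in lung at ZT4-8. In liver at ZT16-20, Eif6, which keeps the subunits from joining too early, rose by 0.80 (adjusted p = 0.000239), Wdr43 by 0.95, Rrp12 by 1.47 and Imp4 by 0.73. Beside these counts, 11.2% and 10.2% of all genes were called higher in lung at ZT4-8 and ZT16-20, and 9.98% in liver at ZT16-20. In kidney 1 of 50 was higher and 2 lower at ZT4-8, and 3 were higher and 2 lower at ZT16-20, where 5.28% and 6.9% of all genes were called, and Rrs1 fell at both times (-1.01 and -0.67).

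RNA polymerase I and its factors, which transcribe ribosomal RNA, were called 4 lower and 0 higher of 17 in each lung comparison, and 2 lower at ZT4-8 and 4 lower at ZT16-20 of 17 in light-dark liver, with 0 higher. Over all genes, 11.4% and 10.9% were called lower in the lung comparisons and 10.3% in liver at ZT16-20. In liver at ZT4-8, 9.64% of all genes were called in either direction, and 398 of 9451 were called lower. Ttf1, its termination factor, fell in lung by 1.06 and 0.82, and Taf1a by 0.96 in lung at ZT4-8 and by 1.80 in liver at ZT16-20. Other mRNAs that begin with a TOP tract, for translation factors and the like, were called 4 higher and 0 lower of 25 in lung at ZT4-8, 6 higher and 1 lower of 25 at ZT16-20, 1 higher and 1 lower of 23 in liver at ZT16-20, and 0 higher and 4 lower of 22 in WT dark liver at CT4-8. There 6.07% of all genes were called lower. Of all genes, 11.2% and 10.2% were called higher in the lung comparisons, and 9.98% higher and 10.3% lower in liver at ZT16-20. In lung at ZT16-20, Eef1a1, which delivers tRNA, rose by 0.54, Hnrnpa1 by 0.77 and Fau, which encodes a small subunit protein fused to a ubiquitin-like one, by 0.38, and Naca rose by 0.32 at both times. In WT dark liver at CT4-8, Tpt1 fell by 0.74, Eef1g by 0.62, Naca by 0.57 and Fau by 0.88. Air library A, which stood apart, enters these values and the 4 calls lower, and they are not given without it.

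Regulators and other large complexes were set beside the members in the same comparisons. Sesn2, another stress-induced inhibitor of mTORC1, rose in lung by 1.63 and 0.96, and Larp1 by 0.62 in lung at ZT4-8. Eif4ebp1, an mTORC1 target that blocks translation initiation, rose by 0.56 and 0.74 in light-dark liver. Myc, which drives ribosomal protein and biogenesis genes, was at 6.67 to 11.9 CPM in air and 27.5 to 37.1 CPM in 6% oxygen in lung at ZT4-8 and rose by 1.89 there and by 1.68 at ZT16-20. Mitochondrial ribosomal proteins, the counterparts of the members in mitochondria, were called 5 higher and 8 lower of 68 in lung at ZT4-8, 3 higher and 5 lower of 68 at ZT16-20, and 8 higher and 2 lower of 67 in liver at ZT16-20. Proteasome subunits were called 7 higher and 0 lower of 37 in each lung comparison. Nuclear-encoded subunits of oxidative phosphorylation were called 6 higher and 0 lower of 75 in each lung comparison, and 0 higher and 9 lower of 71 in liver at ZT16-20. Set beside 22.6%, 21.1% and 20.3% of all genes called in either direction in these 3 comparisons, the calls of these 3 complexes in both directions together were no more for their number. By direction, all genes were called 11.2% higher and 11.4% lower, 10.2% and 10.9%, and 9.98% and 10.3%. The proteasome calls in lung, all higher, were more for their number than the calls of all genes in that direction. So, by less, were those of oxidative phosphorylation called lower and of the mitochondrial ribosome called higher in liver. These lists share libraries with the members and were not tested against them.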

How the data were processed

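Counts per gene were taken as deposited, in 5 tables (liver, kidney and lung in the light-dark experiment, and WT and KO liver in darkness). Per the submitters' processing notes, reads were handled with bcl2fastq, cutadapt, STAR and HTSeq on mm10, with no versions recorded there. Whether strand was used and how reads with several matches were counted is not stated in those notes or the labels. Per the labels' protocols, cDNA input was evened by actin qPCR before pooling.

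Genes were kept by filterByExpr (minimum count 10, minimum total 15), scaled by TMM and tested with edgeR 4.0.16 (robust quasi-likelihood test, R 4.3.3), with Benjamini-Hochberg adjustment over all genes of each comparison and a call at an adjusted p under 0.05. Tissues were tested in 1 joint fit with the mouse (same time, oxygen and letter, which the labels do not tie to 1 mouse) as a block, and dark livers of both genotypes in 1 joint fit. There were 30 comparisons. Alternatives were DESeq2 1.42.0, RLE scaling, TMM without the members, no filter, replicate letter as a block and leaving out each library; total-count scaling was chosen after seeing the data. Summed shares were also computed with TMM-scaled totals, without the paralogs and without the 10 most abundant other genes. The fit was checked on simulated data. CPM are TMM-scaled unless total counts are named. Named members were up to 4 called in each direction per comparison by size of change at a mean of 10 CPM or more, the stalk genes, Rpsa, the paralogs and the 5 highest members per table. Companion genes were up to 4 per list by p, with Ddit4, Sesn2, Larp1, Eif4ebp1 and Myc. Any other gene was named after its values were seen. The members, lists and tests were chosen with earlier results of these data known.

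Replicates are separate mice, per the design text. Of 117 pairs of libraries within groups, 0 were identical, and the lowest chi-square per degree of freedom between their counts was 2.428. The lowest maximum count of any listed gene was 6, so genes below that level were not in the tables. Coordinates are from GENCODE vM21 (mm10) and promoters from RefSeq (GRCm38.p6). Some items are not reported here.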

Additional observations from a re-analysis of the deposited data

Results flagged for a closer look

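In 2 of the 19 groups of 4 libraries, 1 library's summed share of ribosomal protein counts lay far from the others by Dixon's test, which chance does in about 1 of 20 groups. Library A of lung in 6% oxygen at ZT4-8 was at 8.003%, where the group's lowest was 7.651%. Library A of WT dark liver in air at CT4-8 was at 4.295%, where the group's lowest was 2.899%. This is the library that stood apart in the correlations. Counts of members called in tests that it enters are given with and without it in the report.

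Several oxygen effects differed between groups in a test of the difference itself. Between genotypes at CT4-8, the oxygen effect on Rps18 was 0.78 higher (log2) in livers labelled KO than in WT. Between liver and lung, the difference was -1.14 for Rpl35, -0.82 for Rps16, -0.73 for Rpl41 and -0.65 for Rps23. Between lung and kidney it was 1.01 for Rps16, 0.80 for Rpl41, 0.64 for Rps3a1 and 0.63 for Rpl24. Of these, Rps16, Rps3a1 and Rpl24 passed in all 16 fits that left out 1 mouse for lung against kidney, and Rps16 and Rpl35 for liver against lung. Rps18 did not pass in 8 of the fits that left out 1 library, among them the one without WT library A of air.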

How the results depend on the processing

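Counts of called members were within 1.5 times of those given in 18 of 30 comparisons with DESeq2, 29 with RLE scaling, 30 with TMM without the members, 27 with no filter and 23 with total counts. DESeq2 moved them to 2 in liver at ZT4-8, 8 for time in liver, 1 for the change of the oxygen effect with time in liver, 2 in kidney at ZT4-8, 1 at ZT16-20, 1 for that change with time and 2 for time in kidney, 1 in WT dark liver at CT16-20, 1 for its change with time, 8 for time in WT dark liver, and, between genotypes, 4 for the oxygen effect at CT4-8 and 1 in air at CT16-20. RLE scaling gave 2 in liver at ZT4-8. No filter gave 3 for time in liver, 0 in kidney at ZT4-8 and 1 for the change with time in kidney. Each was the same fit with 1 choice changed, and the cause was not tested.

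Total-count scaling gave 0 for time in liver, 1 for time in kidney, 2 and 6 in lung, 1 in WT dark liver at CT16-20, and 6 and 3 for the oxygen effect in liver against lung and lung against kidney. It moved the members' median to 0.0614 for time in liver, 0.00198 and 0.0661 in lung, 0.125 for the change with time in KO, 0.313 for KO minus WT at CT16-20, -0.623, -1.08 and 0.467 for liver against kidney, liver against lung and lung against kidney, and -0.0597 and 0.0524 for the oxygen effect in liver against lung and lung against kidney. In liver against kidney it reversed Rps25 (-0.073), Rpl7l1 (-0.55), Rplp1 (-0.41), Rplp2 (-0.75), Rps27l (-0.24), Rps4l (-0.21) and Rpsa (-0.31), and in liver against lung Rpl22l1 (-1.24), Rpl7l1 (-0.64), Rplp0 (-1.24), Rplp1 (-1.25) and Rpsa (-0.97). It moved the median of all genes by -0.124 for time in liver, -0.111 in lung at ZT16-20, 0.102 in KO at CT16-20, 0.144 for the change with time in KO, 0.162 for KO minus WT at CT16-20 and -0.125 for the oxygen effect in lung against kidney.

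Calls over all genes, higher and lower, went from TMM to total counts as follows. For time they went from 306 and 253 to 174 and 497 in liver and from 58 and 61 to 48 and 79 in kidney. For oxygen they went from 1363 and 1380 to 1054 and 1769 in lung at ZT4-8, from 1242 and 1326 to 853 and 1953 at ZT16-20, and from 204 and 180 to 309 and 123 in KO at CT16-20. For KO against WT at CT16-20 they went from 87 and 93 to 74 and 130. For tissues they went from 3471 and 3550 to 1122 and 8122 in liver against kidney, from 4075 and 4313 to 1480 and 8155 in liver against lung, and from 4118 and 3920 to 5262 and 2924 in lung against kidney. For the oxygen effect they went from 702 and 917 to 1078 and 645 in liver against lung and from 508 and 349 to 262 and 695 in lung against kidney.

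With each library left out in turn, the count of called members ran from 0 to 1 in liver at ZT4-8, 5 to 9 at ZT16-20 and 0 to 6 for time in liver. In kidney it ran from 0 to 9 at ZT4-8, 0 to 1 at ZT16-20, 0 to 1 for the change with time and 0 to 4 for time, the highest at ZT4-8 and for time without air library C. For time in lung it ran from 0 to 2. In WT dark liver it ran from 4 to 14 at CT4-8, 0 to 2 for the change with time and 1 to 7 for time, and in KO from 1 to 3 at CT16-20. Between genotypes it ran from 2 to 12 in air at CT4-8, 0 to 5 for the oxygen effect at CT4-8 and 0 to 1 in air at CT16-20. For the oxygen effect by tissue it ran from 0 to 2 in liver against kidney and 4 to 9 in lung against kidney. Medians ran from 0.0254 to 0.122 for the change with time in kidney, 0.141 to 0.239 in lung at ZT16-20, -0.305 to -0.0937 in WT dark liver at CT4-8, -0.036 to 0.183 for its change with time, 0.199 to 0.444 for KO minus WT at CT4-8 and 0.178 to 0.293 in lung against kidney.

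Replicate letters were not shown to pair libraries: the mean correlation of same-letter deviations was between -0.0698 and -0.0228 within the tables and 0.0305 between tissues of one mouse, where 5 of 48 pairs were over 0.1. With the replicate block, counts of calls moved to 0 in liver at ZT4-8, 2 for time in liver, 0 in kidney at ZT4-8, 0 for time in lung and 1 in KO at CT16-20, and stayed within 1.5 times in the other 19 of 24. With no replicate block, 0 of the 6 tissue counts moved so far.

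Totals of 1443279 to 6744476 counts leave members under 10 CPM with few counts, and 4 libraries a group limit each test. Per-gene values of members with many pseudogenes depend on how reads with several matches were counted, which the counts cannot show.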

Other observations

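A few members had values in single libraries far from the rest of their group, and these members were chosen after their values were seen. Rpl7a, a large subunit protein with 120 pseudogenes that share its sequence, was at 143, 122, 90.3 and 508 CPM in air at CT4-8 in WT dark liver, and at 91.4, 81.1, 473 and 55.4 CPM at CT16-20. In 6% oxygen it was at 74.7, 67.0, 85.2 and 83.7 CPM at CT4-8 and 99.0, 93.7, 426 and 410 CPM at CT16-20. In dark liver labelled KO it ran from 3.81 to 85.2 CPM in the 8 air libraries, while 4 of the 7 libraries in 6% oxygen were at 316, 385, 524 and 473 CPM and the others at 6.90 to 82.8 CPM. In light-dark liver all 16 libraries lay between 572.7 and 855.5 CPM. The high values of WT were spread over both oxygen levels and those of livers labelled KO were all in 6% oxygen, and Rpl7a was not called by oxygen in either genotype at either time.

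Rps16 was as uneven in darkness, from 2.06 to 69.6 CPM in WT and from 2.71 to 49.4 CPM in livers labelled KO. Rps24 was at 353.6, 48.94, 571 and 44.15 CPM in kidney in air at ZT4-8, and Rpl36a at 174.6, 47.4, 133 and 43.57 CPM in the same libraries, so libraries B and D were low for both. In WT dark liver in air at CT4-8, library A was low for both again, with 47.61 against 235.1 to 253.2 CPM for Rps24 and 51.18 against 132.7 to 161.7 CPM for Rpl36a. The kidney libraries enter the tissue differences of both genes given above. The cause was not tested.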
